A study of Mus musculus with 56 samples.

Results

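The DNA replication genes described here are 36 genes of S phase and its start, found by their symbols among the 27998 genes of the single-cell matrix and by the same symbols in a bulk count table and in bulk FPKM files. All 36 were present in the 3 sources and all 36 passed the low-value filter of every comparison. By role they were the 6 subunits of the replicative helicase ring (Mcm2 to Mcm7), 6 genes that license origins or switch the helicase on, 5 of the sliding clamp and its loader, 2 that coat single-stranded DNA, 3 of polymerases and primase, 2 that finish the lagging strand, 4 of nucleotide supply, 5 of repair, chromatin and histone mRNA at forks, and 3 regulators of the passage from G1 to S.

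The samples were mouse microglia, the macrophages of the brain, in 56 samples and 10 groups. Droplet libraries with 3′ tags were made from B6 cortex, 2 for each of 4 groups. These were wild type at P9 and at P28 (postnatal days 9 and 28) and, at P9, the genotypes labelled ST2 Het and ST2 KO, where ST2 is the receptor for IL-33 encoded by Il1rl1. Bulk libraries of primary cultures came from wild-type B6 pups of postnatal days 5 to 8, grown for 7 to 9 days in vitro with M-CSF and serum, of which 7 stayed without a stimulus (called medium) and 7 had IL-33 added (200 ng/ml, 3 h). A pretreatment with the demethylase inhibitor GSK-J4 appears in the culture protocol without saying which cultures received it. Cortical microglia of Mapttm1(EGFP)Klt carriers on a B6/129 background, in which the Mapt locus drives GFP in neurons, gave 8 Tau-GFP positive and 8 Tau-GFP negative libraries, at day 10 by the sample labels and day 9 by the design text. The TMRM sort used B6/C57 cortex at P9 and gave 10 libraries of brightly and 8 of dimly stained microglia (TMRM high and TMRM low), TMRM being a dye that gathers in mitochondria by their membrane potential. Nothing states that the libraries of a group came from separate animals, so p-values measure the spread between these libraries, which may be technical.

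Before a cell copies its DNA, Cdc6 and Cdt1 load the Mcm2 to Mcm7 ring onto origins, and Cdc45, the GINS complex and Mcm10 then turn the ring into a working helicase. Polymerases with the Pcna clamp copy both strands while ribonucleotide reductase and thymidylate synthase make the building blocks, and E2f1 with the E-type cyclins switches many of these genes on at the end of G1. Microglia divide in the brain of newborn mice and divide rarely in the adult, and these genes serve the copying of DNA in dividing cells. Not every member marks a dividing cell. Slbp and Rfc2 kept 86.6% and 74.7% of their P9 level in P28 cells outside the dividing clusters described below.

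The start regions of some members held an E2F-type motif, which their choice did not use. Of the 36 members, 30 had a window of 300 bases, from 250 before to 50 after the start, in the RefSeq table for mm10 (GRCm38.p6). Some genes, among them Mcm7 and Uhrf1, had a further window, and a match in any window counted for the gene. An E2F-type motif, searched on both strands as TTTCCCGC or TTTGGCGC, was found for 10 of the 30 members (33.3%) and for 1.8% of all 27025 genes with a window. A CCAAT box, a short site common in promoters of cell cycle genes, was in 18 of the 30 (60%) and in 41.1% of all genes. The 5 stretches below show where both motifs lie before the start of 2 helicase subunits, a polymerase gene and a fork factor, and for Rrm2 the CCAAT box with no E2F-type match in the same stretch. Capitals mark a match on either strand, written 5′ to 3′ on the gene's strand.
Mcm6: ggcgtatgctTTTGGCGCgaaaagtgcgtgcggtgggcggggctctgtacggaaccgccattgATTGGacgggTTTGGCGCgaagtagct
Mcm5: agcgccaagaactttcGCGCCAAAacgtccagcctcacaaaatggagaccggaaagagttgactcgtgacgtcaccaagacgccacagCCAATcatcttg
Pola1: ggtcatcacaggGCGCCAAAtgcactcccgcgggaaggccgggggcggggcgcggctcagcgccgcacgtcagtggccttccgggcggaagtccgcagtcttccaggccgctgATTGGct
Dtl: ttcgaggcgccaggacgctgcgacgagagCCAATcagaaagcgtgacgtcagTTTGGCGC
Rrm2: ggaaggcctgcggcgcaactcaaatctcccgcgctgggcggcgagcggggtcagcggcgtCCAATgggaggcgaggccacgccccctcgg

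These stretches lie at chr1:128359736-128359825 (minus strand, Mcm6), chr8:75109344-75109443 (plus, Mcm5), chrX:93632186-93632305 (minus, Pola1), chr1:191575545-191575604 (minus, Dtl) and chr12:24708144-24708233 (plus, Rrm2) of mm10, all upstream of the annotated start. Mcm6 holds the E2F-type motif at 110 and at 47 bases before its start. Dtl holds it 8 bases before the start, with the CCAAT box 31 bases before. The other 6 members with an E2F-type match were Mcm3, Mcm7, Cdc6, Cdt1, Hells and Rfc3. Of 41 further replication genes with a window, 14 held the motif, and of 27 genes of G2 and mitosis, 0 held it while 22 held a CCAAT box. A match describes these letters and is no evidence of binding.

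In the single-cell data 15335 of 15507 barcodes passed the filters, and 270 of them carry a barcode sequence also seen in another library. Of 17 clusters, 13 with 14383 cells were microglia-like, and their summed UMIs ranged from 4080229 to 10526512 per library. Bulk count libraries held 7709047 to 11826389 expected counts. All 10 microglia markers were detected in every group, with summed levels of 23130 to 31180 CPM in the single-cell sums. In the microglia-like cells Il1rl1 had 72 and 57 UMIs in the P9 wild-type libraries, 15 and 40 at P28, 37 and 46 in ST2 Het and 30 and 28 in the libraries labelled ST2 KO. As CPM of all UMIs (not TMM-scaled) these were 6.84 and 5.91, 2.04 and 5.44, 5.45 and 6.72, and 7.35 and 6.17. The labels do not say which part of the gene is deleted, so this 3′ tag checks nothing about the genotype. In all bulk samples, fewer dividing cells and less RNA per cell cannot be told apart.

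FPKM, which is scaled to gene length, allows the members' levels to be ordered in P9 cortical microglia. Over the 18 TMRM libraries the clamp gene Pcna was highest at 86.8 ± 16.95 FPKM (SD), followed by Mcm3 at 76.9 ± 11.4, Rfc2 of the clamp loader at 54.6 ± 7.15 and Mcm6 at 46.9 ± 6.65. The lowest were the G1/S cyclin Ccne2 at 1.17 ± 0.38, the loader Cdc6 at 2.10 ± 0.50 and Pole, the leading-strand polymerase, at 2.11 ± 0.51 FPKM. Pcna and Mcm3 differed by less than their spread, as did Cdc6 and Pole. The 6 ring subunits, which assemble in equal numbers, spanned 20.5 ± 4.05 (Mcm4) to 76.9 FPKM.

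Between P9 and P28 the whole set fell in wild-type cortical microglia. All 36 members were lower at P28 (edgeR quasi-likelihood test, adjusted p from 3.6e-11 to 3.3e-05, n = 2 libraries a group), where 53.6% of all 11600 genes tested were called in either direction and 26.1% were called lower. The median log2 fold change was -3.32, against 0.06 over all genes, and the members ranged from -0.70 (Slbp) to -10.53 (Rrm2). The groups did not overlap in any member, where 78.2% of all genes had groups with no overlap in either direction. The median differed by role, from -1.65 for the 2 single-strand binding genes and -2.02 for the clamp and its loader, through -2.84 for polymerases and primase, -3.10 for lagging-strand maturation, -3.34 for the helicase ring, -3.74 for licensing and -4.08 for nucleotide supply, to -5.10 for fork repair and chromatin and -6.11 for the G1/S regulators.

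In the helicase ring, Mcm5 had 60.7 and 56.6 CPM in the P9 libraries and 1.33 and 3.50 CPM at P28, a log2 fold change of -4.60 ± 0.21 (SE, edgeR adjusted p = 1.1e-09). Mcm3 had 81.8 and 73.9 CPM at P9 and 27.1 and 29.6 CPM at P28 (-1.46 ± 0.08, edgeR adjusted p = 6.3e-09). The ring thus did not fall evenly, since Mcm3 kept 36.4% of its P9 level and Mcm5 4.12%, with Mcm7 (25.5%), Mcm4 (11.1%), Mcm6 (8.72%) and Mcm2 (6.14%) between them. Cdc6, which recruits the ring to origins, had 5.66 and 4.10 CPM at P9 and 0 UMIs in both P28 libraries. Its 96 UMIs at P9 and the floor of 3 UMIs over the P28 group make it at least 23.4-fold lower per total UMI. Its partner Cdt1 had 31.1 and 28.7 CPM at P9 and 5.71 and 8.08 CPM at P28 (-2.12 ± 0.14, edgeR adjusted p = 5.1e-08), so the pair of loading factors differed in how much remained.

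Among clamp genes, Rfc2 had 130.2 and 129.7 CPM at P9 and 74.7 and 76.7 CPM at P28 (-0.78 ± 0.06, edgeR adjusted p = 2.3e-07). Rfc4, another subunit of the same 5-part loader, had 29.3 and 32.3 CPM and then 4.92 and 4.31 CPM (-2.73 ± 0.17, edgeR adjusted p = 2.0e-08). The loader subunits therefore kept from 14.98% (Rfc4) to 58.3% (Rfc2) of their P9 level. Rpa1 and Rpa2, which bind single-stranded DNA, went from 36.01 and 35.5 to 14.1 and 15.9 CPM and from 67.2 and 66.1 to 15.5 and 16.96 CPM. Both kept more than most members, at 41.9% and 24.4%.

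Pola1, the catalytic subunit that starts each fragment with primase, had 10.5 and 8.75 CPM at P9 and 2.79 and 1.62 CPM at P28 (-2.12 ± 0.27, edgeR adjusted p = 2.0e-05). Pole had 76 and 86 UMIs in the P9 libraries and 0 and 1 UMI at P28, a ratio of 118 with a counting interval of 20.9 to 4699. Lig1, the ligase that seals fragments, went from 74.2 and 76.6 to 5.58 and 6.46 CPM, and Fen1, the flap nuclease, from 80.5 and 79.7 to 12.4 and 14.9 CPM. All 4 of these genes were far below P9 in both P28 libraries, with Pole at 1 UMI in all.

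Rrm2, the S-phase subunit of ribonucleotide reductase, had 1187 and 1237 UMIs in the P9 libraries and 0 and 1 UMI at P28. The ratio per total UMI was 1769, with a 95% counting interval of 317 to 69920. Its partner subunit Rrm1 kept 15.4% of its level, with 46.9 and 42.2 CPM at P9 and 7.18 and 6.60 CPM at P28, and the 2 subunits of 1 enzyme thus had log2 fold changes of -10.53 and -2.69. Tyms, thymidylate synthase, had 99.8 and 111.7 CPM at P9 and 17.3 and 18.4 CPM at P28 (-2.56 ± 0.10, edgeR adjusted p = 3.8e-10). Tk1, thymidine kinase, kept 2.25%.

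Slbp, which binds the stem-loop of histone mRNA, changed least of the 36, with 164.6 and 174.2 CPM at P9 and 104.7 and 104.0 CPM at P28 (-0.70 ± 0.09, edgeR adjusted p = 3.3e-05). Uhrf1, which passes DNA methylation to the new strand, had 291 and 248 UMIs at P9 and 3 and 0 at P28, a ratio of 131 with a counting interval of 44.6 to 638. Ung, Dtl and Hells, a uracil glycosylase, a fork-linked ubiquitin ligase adaptor and a chromatin remodeller, kept 2.13%, 2.87% and 3.94%. E2f1, an activator of many genes of this kind, had 49.1 and 55.8 CPM at P9 and 0.797 and 0.673 CPM at P28 (-6.12 ± 0.18, edgeR adjusted p = 3.6e-11). Ccne2 had 18.7 and 15.7 CPM and then 0.266 and 0.269 CPM (-5.92 ± 0.38, edgeR adjusted p = 2.8e-08). The 3 regulators were the role with the least left, at 1.36% to 1.56% of P9.

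**Figure D1:**
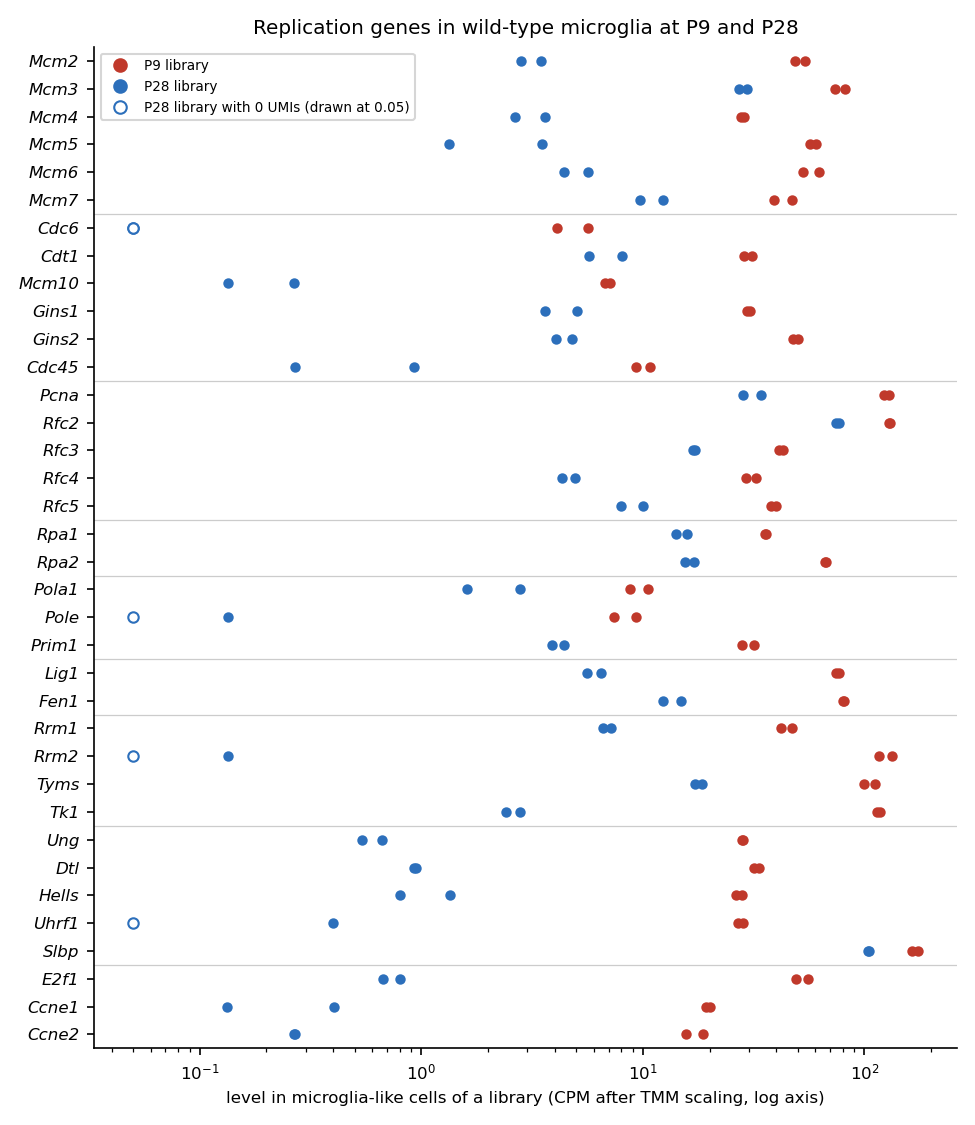
Level of each member in the microglia-like cells of each wild-type library (CPM after TMM scaling, log axis), with P9 libraries in red, P28 libraries in blue and P28 libraries with 0 UMIs as open circles at the left edge. Every P28 point lies left of both P9 points, least so for Slbp, Rfc2, Rpa1 and Rfc3, and Cdc6, Pole, Rrm2 and Uhrf1 reach 0 UMIs in at least 1 library.

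Other genes of the same processes moved with the members. Of 55 further replication genes 48 fell and 1 rose, led by Brca1 and Orc1, both at 0 UMIs at P28, while Tonsl, a histone reader at forks, was 0.25 ± 0.06 higher. Of 15 genes that brake the G1 to S step, 8 fell and 3 rose: the kinase inhibitors Cdkn1c (5.76 and 6.16 to 20.5 and 20.99 CPM, 1.80 ± 0.17) and Cdkn1b (0.83 ± 0.13) were among the higher ones, and E2f8, a repressor made in S phase, had 0 UMIs at P28. Of 30 G2 and mitosis genes 29 fell, with a median of -6.55, including Mki67 (-9.87 ± 0.29). The largest edgeR adjusted p among the named genes of these lists was 0.0024, for Tonsl. Markers of border-associated macrophages fell in the same sums, from 289 to 301 CPM at P9 to 32.7 to 35.5 CPM at P28, with 6 of 6 tested markers lower, and neutrophil markers rose from 2.24 to 5.94 CPM to 55.7 to 89.7 CPM. The part of these cells in the result was not tested beyond the summing of all cells kept, which left 36 members lower with a median of -3.17.

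Members were lower at P28 both with and without the dividing clusters counted. Clusters 5, 6, 7 and 14, led by cell cycle genes, held 30.4% and 31.5% of the microglia-like cells in the P9 wild-type libraries with 59.7% and 61.4% of the member UMIs, and held 0 cells at P28. In the microglia-like clusters outside these 4 the members together had 1134 and 1086 CPM (not TMM-scaled) in the P9 wild-type libraries and 402.5 and 410.6 at P28. The cells outside these 4 lay mostly in different clusters at the 2 ages: cluster 0 held 3 and 1 P9 wild-type cells and 1588 and 1655 at P28, and cluster 1 held 1079 and 827 at P9 and 8 and 5 at P28. Over those cells each of the 36 members was lower at P28, and Rfc2 kept 74.7% and Slbp 86.6% of the P9 level but E2f1 1.74% and Uhrf1 1.44%. The clusters were built from the same cells and genes, 4 of the members being among the variable genes used, so these levels are a description.

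Within P9 wild-type cells most members were highest in the same cluster. In cluster 6, led by Rrm2, Tyms and Ccne2, the members had 5812 and 5563 CPM, against 2394 and 2668 in cluster 7, led by Ube2c, Nusap1 and Top2a. Of the 36, 28 were highest in cluster 6. Another 7, Cdc6, Mcm10, Rfc3, Rrm1, Rrm2, Slbp and Ccne1, were highest in the small cluster 14 (23 and 22 cells in the P9 wild-type libraries), whose leading genes were Aurka and Fbxo5, and Tk1 was highest in cluster 7. Of these 8, Rfc3 (105.9 CPM in cluster 14 and 104.2 in cluster 6), Cdc6 (21.3 and 19.2 CPM) and Tk1 (382.5 CPM in cluster 7 and 379.6 in cluster 6) were near ties. Rrm1 was also close, at 129.3 CPM in cluster 14, 115.2 in cluster 7 and 113.2 in cluster 6. Mcm10 had 34.2 CPM in cluster 14 and 24.8 in cluster 6, the former from few cells. The ratio of the level in cluster 7 to that in cluster 6 ordered the genes. It was lowest for Ung (0.024), E2f1 (0.088), Cdt1 (0.10) and Hells (0.11), was 0.20 to 0.39 for the ring subunits, and was highest for Rrm1 (1.02), Tk1 (1.01), Rrm2 (0.72) and Fen1 (0.72). The Cdt1 mRNA had 74.0 CPM in cluster 6 and 7.46 CPM in cluster 7. The destruction known to occur as replication starts is that of the Cdt1 protein, which was not measured here. Rrm2 had 485 CPM in cluster 6, 348 CPM in cluster 7, 900 CPM in cluster 14, 13.1 CPM in cluster 5 and 10.6 CPM in the others.

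**Figure D2:**
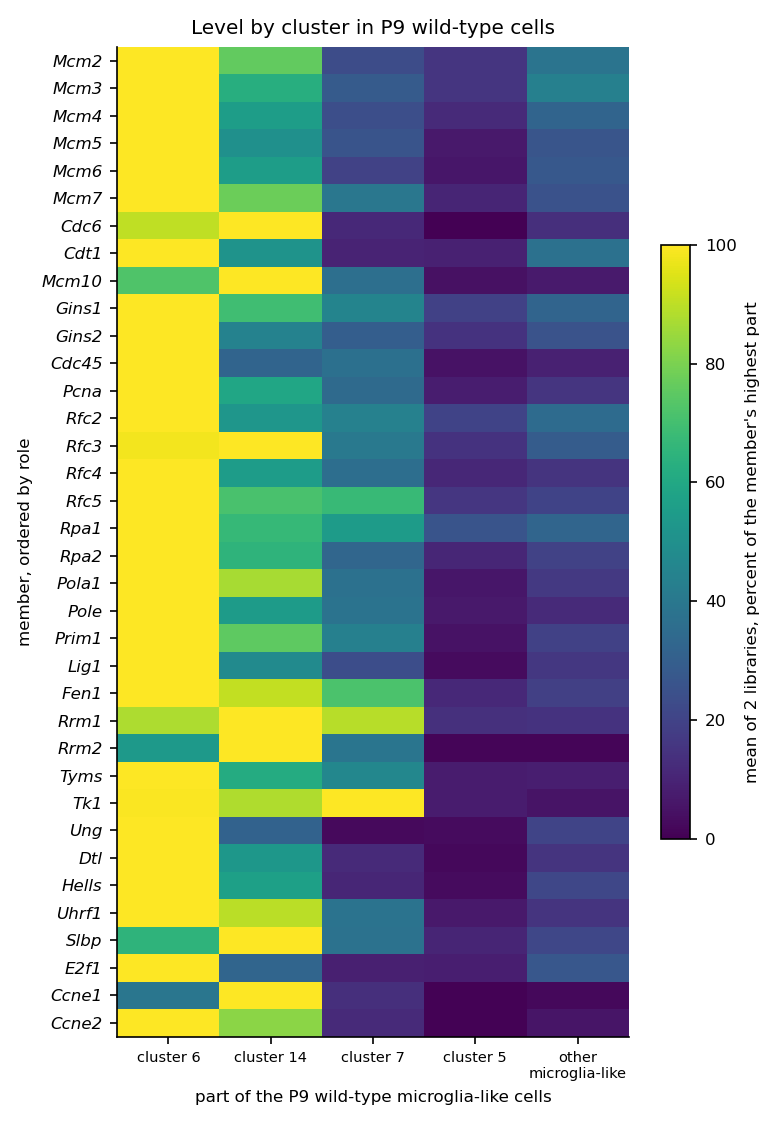
Mean level of each member over the 2 P9 wild-type libraries in clusters 6, 14, 7 and 5 and in the other microglia-like clusters together, as percent of the member's own highest part (colour scale from 0 to 100). The brightest cell is in cluster 6 for 28 members, in cluster 14 for 7 and in cluster 7 for Tk1, and cluster 5 is dark throughout.

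Counted per cell, replication transcripts marked a share of the P9 cells. After each cell was thinned to 1000 UMIs, 22.4% and 23.05% of cells in the P9 wild-type libraries had at least 3 member UMIs (exact 95% intervals 20.8 to 24.1 and 21.3 to 24.9), and 1.10% and 0.943% at P28. The unthinned shares were 56.2% and 57.6% at P9 and 10.4% and 10.1% at P28, at median depths of 3832 and 4070 and of 2296 and 2232 UMIs a cell. In cluster 15, led by the neutrophil genes S100a8 and S100a9, whose cells had a median of 3944 UMIs, the thinned share was 2.11% (0.256 to 7.40). That share rests on 2 of 95 cells. The P28 shares were below it at this setting. With at least 2 UMIs at 1000, P28 had 7.00% and 7.02% against 6.32% in cluster 15, and with at least 3 at 2000 it had 5.52% and 4.96% against 4.94%, each P28 value inside the interval of cluster 15. Cluster 15 is no blank, since its highest cell held 34 member UMIs before thinning. Neither expression nor its absence is read from these P28 shares. Cluster 8, led by the border macrophage genes Pf4 and Lyve1, had 4.29%, and cluster 13, led by the endothelial gene Cldn5, had 26.1% of cells. Cluster 13 was given no cell type. Over 10% of its cells held 1 of 8 endothelial markers, and the same was so for all 10 microglia markers. In the P9 wild-type libraries, 6.95% and 8.18% of cells had 3 or more UMIs of both the members and the G2 and mitosis genes, and 15.5% and 14.9% had them of the members only. Thinning left out 2 and 0 shallower cells at P9 and 16 and 30 at P28, and intervals cover counting error only.

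**Figure D3:**
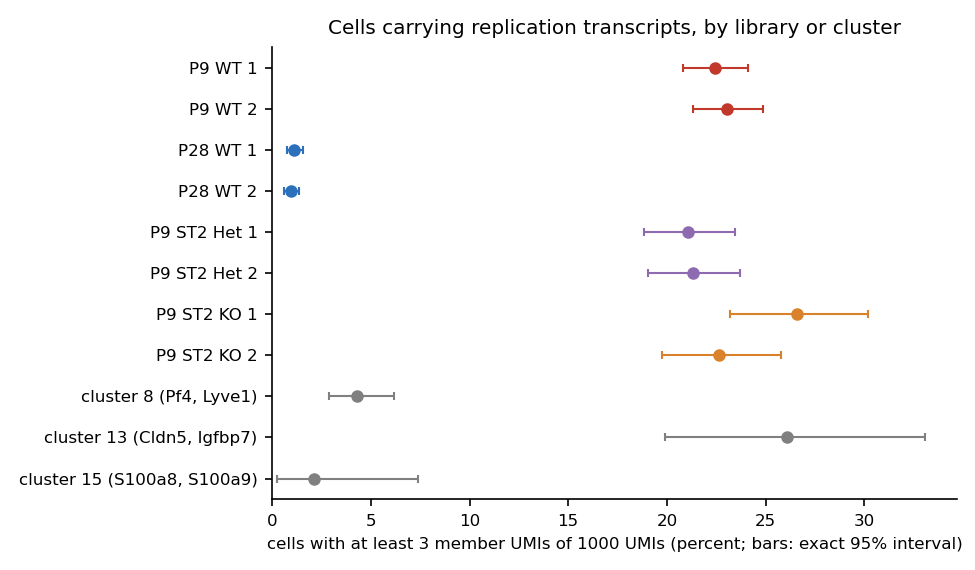
Percent of cells with at least 3 member UMIs after thinning to 1000 UMIs, with exact 95% intervals, for the microglia-like cells of each library and for 3 clusters of other classes. The 6 P9 libraries lie between 21.1% and 26.6%, the 2 P28 libraries at 1.10% and 0.943%, and the Cldn5-led cluster 13 at 26.1%.

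The libraries labelled ST2 KO and those labelled ST2 Het addressed whether the IL-33 receptor bears on P9 microglia, and 1 member differed. Pcna had 206.0 and 156.8 CPM in the libraries labelled ST2 KO and 124.7 and 114.6 CPM in ST2 Het, with no overlap, as in 37.8% of all genes (0.60 ± 0.11, edgeR adjusted p = 0.028). No other member was called, 0 were lower, and 0.595% of all genes were called (0.302% higher). The 36 fitted values had a median of 0.26 against -0.00073 over all genes, and 34 were above 0, from 0.04 (Mcm3) to 0.60, while Rfc3 (-0.06) and Pola1 (-0.04) were below. That median was 0.095 without ST2 KO replicate 1 and 0.41 without replicate 2. The Pcna call was lost without either Het library or without ST2 KO replicate 1 (0 members called), and 7 members were called without ST2 KO replicate 2. Pcna, which holds the polymerases on DNA and also serves in repair, lies at chr2:132249162-132253314 (minus strand, GENCODE M21 on GRCm38).

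The libraries labelled ST2 KO differed from each other. The cell barcodes of KO replicate 1 and of Het replicate 1 carry the word redo, which their labels do not. ST2 KO replicate 1 was above ST2 KO replicate 2 in 33 of 36 members, all but Cdc45, Mcm10 and Pole, and Rrm2, for example, had 134.2 CPM in replicate 1 and 72.7 CPM in replicate 2, on either side of the Het libraries at 82.1 and 93.7 CPM. The thinned share of cells with at least 3 member UMIs was 26.6% (23.2 to 30.2) and 22.7% (19.8 to 25.8) in the libraries labelled ST2 KO, and 21.1% (18.8 to 23.4) and 21.3% (19.1 to 23.7) in ST2 Het. The intervals of all 4 libraries overlap at this setting and cover counting error only. With at least 2 UMIs at 1000, the interval of ST2 KO replicate 1 (35.5 to 43.2) lay above that of ST2 Het replicate 1 (28.7 to 34.0). Endothelial markers summed to 65.7 and 72.5 CPM in the libraries labelled ST2 KO against 38.0 and 42.0 CPM, and mural markers to 31.9 and 34.7 CPM against 11.3 and 17.8 CPM. Of 8 endothelial markers 3 were tested and 1 was called higher, with a median log2 fold change of 0. Of 7 mural markers 1 was tested and was called higher. The endothelial gene Cldn5 was at 0 in both groups, but the Cldn5-led cluster 13 was left out of these sums. That 0 may follow from the choice of cells, and nothing is read from it. The part of endothelial and mural cells in the Pcna value was not tested beyond summing all cells kept, which gave 0 calls. None of the 55 further replication genes, the 15 brakes and the 30 G2 and mitosis genes was called by edgeR.

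ST2 Het libraries had lower levels of 9 members than P9 wild-type libraries. These were Gins2, Rfc2, Rfc5, Rpa2, Lig1, Fen1, Tyms, Tk1 and E2f1, with 0 higher, where 17.6% of all genes were called and 9.72% were lower. Over all genes 7.93% were called higher. Those counts, 920 higher and 1127 lower genes, were 428 and 469 without ST2 Het replicate 2, 430 and 573 without wild-type replicate 1, 470 and 653 without wild-type replicate 2 and 316 and 874 by DESeq2. The median over the members was -0.19 against 0.02 over all genes. Both groups are P9 B6 cortex, but the labels date the 2 experiments differently, so genotype and date cannot be told apart. This comparison shares its wild-type libraries with the P28 comparison and its Het libraries with the ST2 KO comparison.

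E2f1 had 38.0 and 37.8 CPM in ST2 Het and 49.1 and 55.8 CPM in wild type (-0.47 ± 0.09, edgeR adjusted p = 0.0040). Rpa2 had 49.8 and 46.8 CPM against 67.2 and 66.1 CPM (-0.47 ± 0.09, edgeR adjusted p = 0.0032), and Tk1 had 80.3 and 84.6 CPM against 114.1 and 117.2 CPM (-0.49 ± 0.10, edgeR adjusted p = 0.0050). The groups did not overlap for any of the 9. In either direction the same was so for 24 of the 36 members and for 59.4% of all genes. Rfc5 of the clamp loader went from 38.0 and 39.8 to 27.8 and 27.2 CPM, Rfc2 from 130.2 and 129.7 to 113.1 and 106.8 CPM, and Gins2, a helicase activator, from 50.4 and 47.7 to 37.2 and 34.0 CPM. Lig1 went from 74.2 and 76.6 to 57.4 and 56.7 CPM, Fen1 from 80.5 and 79.7 to 65.2 and 60.2 CPM, and Tyms from 99.8 and 111.7 to 83.7 and 83.8 CPM. The largest edgeR adjusted p of these 6 was 0.031, for Fen1. None of the 6 ring subunits was called, and their median was 0.05.

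The 9 calls of lower members dropped to 5 without P9 wild-type replicate 2 and to 4 without ST2 Het replicate 2, and Mcm6 was called higher without either library labelled ST2 KO. Of the G2 and mitosis genes 13 of 30 were lower, led by Ube2c (-0.75 ± 0.08, edgeR adjusted p = 1.6e-04), and of the further replication genes 12 of 55, among them the histone chaperone Asf1b (-0.48 ± 0.16, edgeR adjusted p = 0.0498). Among the brakes Cdkn2c (-0.65 ± 0.09, edgeR adjusted p = 5.9e-04) and Cdkn2d were lower and Cdkn1b (0.55 ± 0.14, edgeR adjusted p = 0.015) was higher. The share of microglia-like cells in the 4 dividing clusters was 24.98% and 27.2% in ST2 Het, 30.4% and 31.5% in wild type and 30.5% and 27.8% in the libraries labelled ST2 KO. Border macrophage markers, 5 of 6 of them lower, summed to 177 CPM in both Het libraries against 289 and 301 CPM. With all cells kept, border macrophages included, the members' median was -0.099 and 6 members were lower, Fen1, Rfc2 and Tyms no longer called, while Mcm6 was called higher.

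After 3 h of IL-33, 1 of the 36 members differed in cultured microglia and it was lower. This was Rfc3, a clamp loader subunit, where edgeR called 7.71% of all genes (3.5% lower, 4.21% higher). Its level was 16.04, 18.1 and 20.4 CPM (lowest, median, highest) in the 7 IL-33 libraries and 20.1, 23.1 and 26.99 CPM in the 7 medium libraries (-0.36 ± 0.08, edgeR adjusted p = 0.0076). The ranges overlap, with the highest IL-33 library just above the lowest medium library, and 3.42% of all genes had ranges with no overlap. The member with the next lowest fitted value by p, Cdt1, was at -0.19 ± 0.06 (edgeR adjusted p = 0.064).

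The 36 members had a median of -0.10 against -0.0078 over all genes, with 33 below 0, and the median was -0.046 without medium replicate 2. Their sum was 1097, 1251 and 1439 CPM in the IL-33 libraries and 1213, 1326 and 1671 CPM in medium, and the ranges overlap. Mcm3 (-0.0031 ± 0.069), E2f1 (-0.02 ± 0.06), Fen1 (-0.02 ± 0.08) and Rfc2 (-0.02 ± 0.07) lay closest to 0 with small errors, whereas Pole, Ccne1 and Rrm2 had errors of 0.26, 0.25 and 0.25. None of 55 further replication genes, 12 tested brakes and 30 G2 and mitosis genes was called by edgeR, the last with a median of -0.34. Without IL-33 replicate 1 or without medium replicate 4 there were 2 calls of lower members in place of 1, and DESeq2 also gave 2.

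Most members were lower in cultured than in freshly sorted cells. Medium cultures had 28 members lower and 3 higher than Tau-GFP negative cells, where 78% of all genes were called (39.8% lower, 38.2% higher), and the members' median was -0.70 against -0.02 over all genes. Strain, age, genotype and culture differ together between these groups, so they cannot be told apart. The lowest role medians were -2.01 for nucleotide supply and -1.52 for polymerases and primase. Rrm2 had 8.22, 17.7 and 28.7 CPM in medium and 71.4, 99.5 and 139.1 CPM in sorted cells (-2.55 ± 0.21, edgeR adjusted p = 1.1e-09), and Pole had 2.85, 4.94 and 9.75 CPM against 17.2, 26.2 and 40.5 CPM (-2.27 ± 0.23, edgeR adjusted p = 2.0e-08). Neither gene's groups overlap, as was so for 18 of the 36 members and 52.7% of all genes.

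Licensing and activation genes were split, with 4 of 6 lower and 1 higher. Cdt1 was higher in culture, at 54.6, 68.0 and 71.0 CPM against 34.1, 45.1 and 58.1 CPM (0.48 ± 0.11, edgeR adjusted p = 3.3e-04), with some overlap. Gins1 was lower, at 3.36, 4.22 and 5.24 CPM against 8.10, 10.9 and 12.8 CPM (-1.35 ± 0.16, edgeR adjusted p = 1.9e-07). E2f1 was the member highest in culture relative to sorted cells, at 36.5, 39.3 and 43.3 CPM against 9.83, 12.6 and 16.02 CPM (1.57 ± 0.10, edgeR adjusted p = 3.1e-11), with no overlap. Its partner in the G1/S step, Ccne2, was lower, at 4.74, 6.95 and 14.3 CPM against 10.1, 16.4 and 22.7 CPM (-1.05 ± 0.23, edgeR adjusted p = 4.5e-04).

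In the ring, Mcm7 changed most and Mcm4 least of the 5 called subunits. Mcm7 had 43.6, 52.8 and 71.8 CPM in medium and 89.8, 116.1 and 146.7 CPM in sorted cells (-1.09 ± 0.11, edgeR adjusted p = 2.1e-08). Mcm4 had 51.2, 54.1 and 77.6 CPM against 77.0, 92.5 and 107.4 CPM (-0.70 ± 0.10, edgeR adjusted p = 1.9e-06). Mcm6 was not called (0.05 ± 0.09), nor were Cdc6, Rfc4, Ung and Ccne1. Pcna was higher in culture, at 79.1, 89.7 and 113.6 CPM against 61.4, 70.4 and 89.1 CPM (0.34 ± 0.09, edgeR adjusted p = 0.0016), while the loader subunit Rfc5 was lower, at 13.4, 18.3 and 21.4 CPM against 23.9, 29.3 and 34.9 CPM (-0.69 ± 0.11, edgeR adjusted p = 7.7e-06). Rrm1 was lower by 0.97 ± 0.09 on the log2 scale, the smallest fall in nucleotide supply, and Tyms by 2.03 ± 0.08.

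Among the remaining roles, Prim1, the primase subunit, had 6.99, 8.32 and 11.2 CPM in medium and 13.1, 22.6 and 33.1 CPM in sorted cells (-1.40 ± 0.16). Lig1 had 24.2, 31.1 and 45.6 CPM against 52.9, 67.3 and 93.4 CPM (-1.11 ± 0.13), and Fen1 40.8, 45.6 and 57.2 CPM against 45.1, 60.2 and 77.5 CPM (-0.39 ± 0.10). Dtl had 7.88, 10.6 and 20.6 CPM against 20.8, 30.02 and 34.6 CPM (-1.31 ± 0.18), and Slbp 60.0, 69.2 and 72.4 CPM against 72.3, 77.4 and 90.7 CPM (-0.25 ± 0.06). Fen1 and Slbp overlap between the groups and the other 3 do not, with edgeR adjusted p of at most 0.0021.

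Brakes of the G1 to S step went both ways. Cdkn1a, the p53 target that inhibits Cdk2, had 121.9, 131.3 and 168.6 CPM in medium and 36.2, 46.0 and 57.5 CPM in sorted cells (1.47 ± 0.10, edgeR adjusted p = 2.4e-11). Of 13 tested brakes 4 were higher and 7 lower, among the latter E2f7 (-3.20 ± 0.26) and E2f8. Of the further replication genes 34 of 55 were lower, led by the origin factor Ticrr (-2.72 ± 0.27), and 5 were higher, including Gmnn, the inhibitor of Cdt1 (1.26 ± 0.11). Of 30 G2 and mitosis genes 29 were lower, with a median of -2.45, and Pttg1 was higher (0.98 ± 0.08), as it was at P28 (0.61 ± 0.09). The comparison shares its medium libraries with the IL-33 comparison and its negative libraries with the Tau-GFP comparison. The microglia markers, 10 of 10 lower, summed to 8735, 9520 and 9777 CPM in medium and 48420, 51600 and 58680 CPM in sorted cells, and border macrophage markers to 1178, 1607 and 1684 CPM against 411, 457 and 638 CPM, and their part in the result was not tested.

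Tau-GFP in a microglial cell was taken as a mark of engulfed neuronal material, and the sort was made to describe phagocytic microglia. Whether the material lay inside the cells was not tested here. Of the 36 members 4 were higher and 2 lower in Tau-GFP positive cells, where 37.7% of all genes were called (20.7% higher, 16.9% lower), and the members' median was -0.02 against 0.0072 over all genes. The subunits of ribonucleotide reductase led. Rrm1 had 167.4, 190.0 and 212.9 CPM in the 8 positive libraries and 111.8, 141.3 and 168.9 CPM in the 8 negative ones (0.42 ± 0.07, edgeR adjusted p = 2.3e-04), and Rrm2 had 109.8, 135.5 and 172.4 CPM against 71.4, 99.5 and 139.1 CPM (0.38 ± 0.12, edgeR adjusted p = 0.017). Both ranges overlap in part.

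Rfc5 (28.6, 35.99 and 38.00 CPM against 23.9, 29.3 and 34.9) and Rpa1 (73.1, 84.3 and 90.7 CPM against 63.1, 69.9 and 85.8) were higher by 0.25 ± 0.09 and 0.20 ± 0.07, with edgeR adjusted p of 0.039 and 0.036. Cdt1, with 31.7, 34.7 and 44.8 CPM against 34.1, 45.1 and 58.1 CPM, was lower (-0.34 ± 0.11, edgeR adjusted p = 0.019), as was Mcm3, with 177.0, 197.0 and 211.2 CPM against 192.8, 220.0 and 292.9 CPM (-0.20 ± 0.07, edgeR adjusted p = 0.040). All 6 overlap between the groups, where 11.3% of all genes had no overlap. All 6 ring subunits had fitted values below 0 (median -0.13) and all 4 nucleotide supply genes above 0 (median 0.27). Rrm1, Rrm2 and Cdt1 were called under every alternative tried, whereas Rfc5, Rpa1 and Mcm3 were not. Leaving out negative replicate 1, 2, 3 or 7 or positive replicate 3, 4, 6 or 8 left 2 higher members, leaving out positive replicate 7 gave 7, and the count of lower members was 4 without negative replicate 1 and 1 without negative replicate 2, 5, 6 or 7 or positive replicate 1, 5, 7 or 8.

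Most G2 and mitosis genes were called in this sort. Of 30 of them 29 were higher in Tau-GFP positive cells, with a median of 0.69, led by Ube2c (1.12 ± 0.11, edgeR adjusted p = 4.0e-07) and Cenpa (1.02 ± 0.11, edgeR adjusted p = 1.2e-06). The summed members were 1967 to 2306 CPM in positive and 1725 to 2547 CPM in negative libraries and overlap. The ratio of the summed G2 and mitosis genes to the summed members was 1.03 to 1.56 in the positive libraries and 0.637 to 0.970 in the negative ones, with no overlap. Of 55 further replication genes 11 were higher, among them Dbf4, the activator of the Cdc7 kinase (0.78 ± 0.25), and Dut (0.55 ± 0.17), and 4 were lower, led by Dna2 (-0.43 ± 0.11) and Msh6 (-0.31 ± 0.10). The brakes Cdkn2d (0.65 ± 0.14) and Cdkn1a (0.40 ± 0.09) were higher, all with edgeR adjusted p of at most 0.028. Border macrophage markers summed to 2420 to 6716 CPM in positive and 411 to 638 CPM in negative libraries, endothelial markers to 53.6 to 2750 and 62.1 to 387 CPM, neuron markers to 69.0 to 155 and 4.38 to 13.8 CPM, and microglia markers to 24340 to 37930 and 48420 to 58680 CPM. In the same order, mural markers summed to 42.5 to 283 and 7.00 to 33.6 CPM, and astrocyte markers to 82.0 to 246 and 58.4 to 114 CPM. The part of these cells in the result was not tested beyond leaving out positive replicates 3 and 5, the libraries richest in endothelial and border macrophage markers, which gave 4 called members in all, 1 of them lower.

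TMRM-high cells, sorted to compare microglia by mitochondrial potential, had higher levels of 17 members and lower levels of 0 than TMRM-low cells. By limma on log2(FPKM + 1), 30.3% of all 10714 genes tested were called (20.4% higher, 9.84% lower), and the members' median was 0.29 against 0.06 over all genes. Nucleotide supply stood first. Rrm1 had 33.1, 39.5 and 43.0 FPKM in the 10 high libraries and 14.9, 22.1 and 27.4 FPKM in the 8 low ones (0.86 ± 0.10, limma adjusted p = 9.6e-07), and Rrm2 had 41.1, 47.9 and 54.0 FPKM against 23.5, 29.6 and 36.2 FPKM (0.66 ± 0.09, limma adjusted p = 7.2e-06). Neither overlaps, and Tk1 was also higher, at 32.5, 41.6 and 53.0 FPKM against 27.3, 29.3 and 37.4 FPKM (0.40 ± 0.09, limma adjusted p = 0.0018). Tyms, of the same role, was at 0.06 ± 0.16.

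Mcm3 was the third of 3 members with no overlap (6.85% of all genes), at 76.3, 86.4 and 94.6 FPKM against 56.1, 66.5 and 76.0 FPKM (0.36 ± 0.07, limma adjusted p = 3.1e-04). Mcm5 had 40.2, 44.3 and 51.1 FPKM against 28.1, 38.5 and 47.1 FPKM (0.24 ± 0.08, limma adjusted p = 0.025), and Mcm6 (0.30 ± 0.07) and Mcm7 (0.29 ± 0.08) were also called. Among licensing and activation genes Mcm10 had 2.97, 4.58 and 5.92 FPKM against 1.80, 2.34 and 4.01 FPKM (0.56 ± 0.13, limma adjusted p = 0.0033), and Cdc45 had 9.83, 12.6 and 14.5 FPKM against 6.27, 9.70 and 11.4 FPKM (0.37 ± 0.10, limma adjusted p = 0.0084). Gins2 was higher too (0.51 ± 0.14), whereas Cdt1, Cdc6 and Gins1 were at -0.09, 0.02 and -0.07 and not called.

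The clamp loader gene Rfc4 had 11.4, 17.9 and 21.04 FPKM against 3.77, 10.2 and 14.9 FPKM (0.79 ± 0.19, limma adjusted p = 0.0028), and Rfc5 had 16.1, 21.4 and 25.3 FPKM against 9.71, 13.7 and 20.8 FPKM (0.57 ± 0.11, limma adjusted p = 4.7e-04). The clamp itself, Pcna, was not called (0.21 ± 0.13). Rpa1 had 18.2, 23.6 and 24 FPKM against 12.5, 15.8 and 20.1 FPKM (0.48 ± 0.09, limma adjusted p = 3.2e-04), and Rpa2 had 16.7, 19.9 and 25.8 FPKM against 13.5, 16.3 and 21.98 FPKM (0.29 ± 0.10, limma adjusted p = 0.026). All 4 ranges overlap at their edges. None of the 3 polymerase and primase genes was called, with Pole nearest at 0.29 ± 0.11.

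Uhrf1 had 14.3, 20.2 and 23.7 FPKM against 9.34, 14.1 and 19.97 FPKM (0.42 ± 0.12, limma adjusted p = 0.012), E2f1 had 6.88, 7.60 and 10.1 FPKM against 3.53, 5.28 and 11.3 FPKM (0.43 ± 0.14, limma adjusted p = 0.027), and Fen1 had 31.4, 33.6 and 41.3 FPKM against 23.4, 26.4 and 44.5 FPKM (0.29 ± 0.11, limma adjusted p = 0.048). In E2f1 and Fen1 the highest value of all 18 libraries was TMRM low replicate 3. E2f1, Fen1, Mcm5, Mcm7 and Rpa2 lost their call under median-ratio scaling (12 members called), under which the split over all genes was 1718 higher and 1437 lower in place of 2189 and 1054.

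The G2 and mitosis genes were again mostly higher. Of 30, 29 were higher in TMRM-high cells with a median of 0.98, led by Ccnb1 (1.33 ± 0.08, limma adjusted p = 1.1e-10) and Kif20a (1.30 ± 0.11, limma adjusted p = 4.2e-08), beside 0.29 for the members. The summed members were 853 to 966 FPKM in high and 684 to 797 FPKM in low libraries, and the ratio of summed G2 and mitosis genes to summed members was 0.861 to 1.11 against 0.489 to 0.687, both with no overlap. Of 55 further replication genes 17 were higher, led by the histone chaperone Asf1b (0.96 ± 0.14) and Dbf4 (0.87 ± 0.18), and Cdca7 was lower (-0.51 ± 0.08, limma adjusted p = 8.4e-05). Among 13 tested brakes 3 were higher, Rbl2 (0.42 ± 0.15) and Cdkn2d (0.35 ± 0.08) among them, and Fbxw7 was lower (-0.40 ± 0.13). Neutrophil markers summed to 614 to 2279 FPKM in low and 0.184 to 755 FPKM in high libraries, and neuron markers to 8.89 to 50.8 against 1.60 to 4.24 FPKM. Microglia markers, 6 of 10 of them lower and 0 higher in TMRM-high cells, summed to 9534 to 11170 FPKM in high and 10070 to 11770 FPKM in low libraries. Of 3 tested monocyte markers 2 were lower and 1 was higher. Border macrophage markers, 5 of 8 of them higher in TMRM-high cells, summed to 124 to 216 FPKM in high and 51.6 to 135.5 FPKM in low libraries. Mural markers summed to 1.60 to 22.5 FPKM (median 13.3) in high and 1.71 to 58.9 FPKM (median 2.43) in low libraries. Their part was not tested beyond leaving out low replicates 1, 2, 6 and 7, those over 1000 FPKM of neutrophil markers, after which 12 members were called, 10 of them among the 17.

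**Figure D4:**
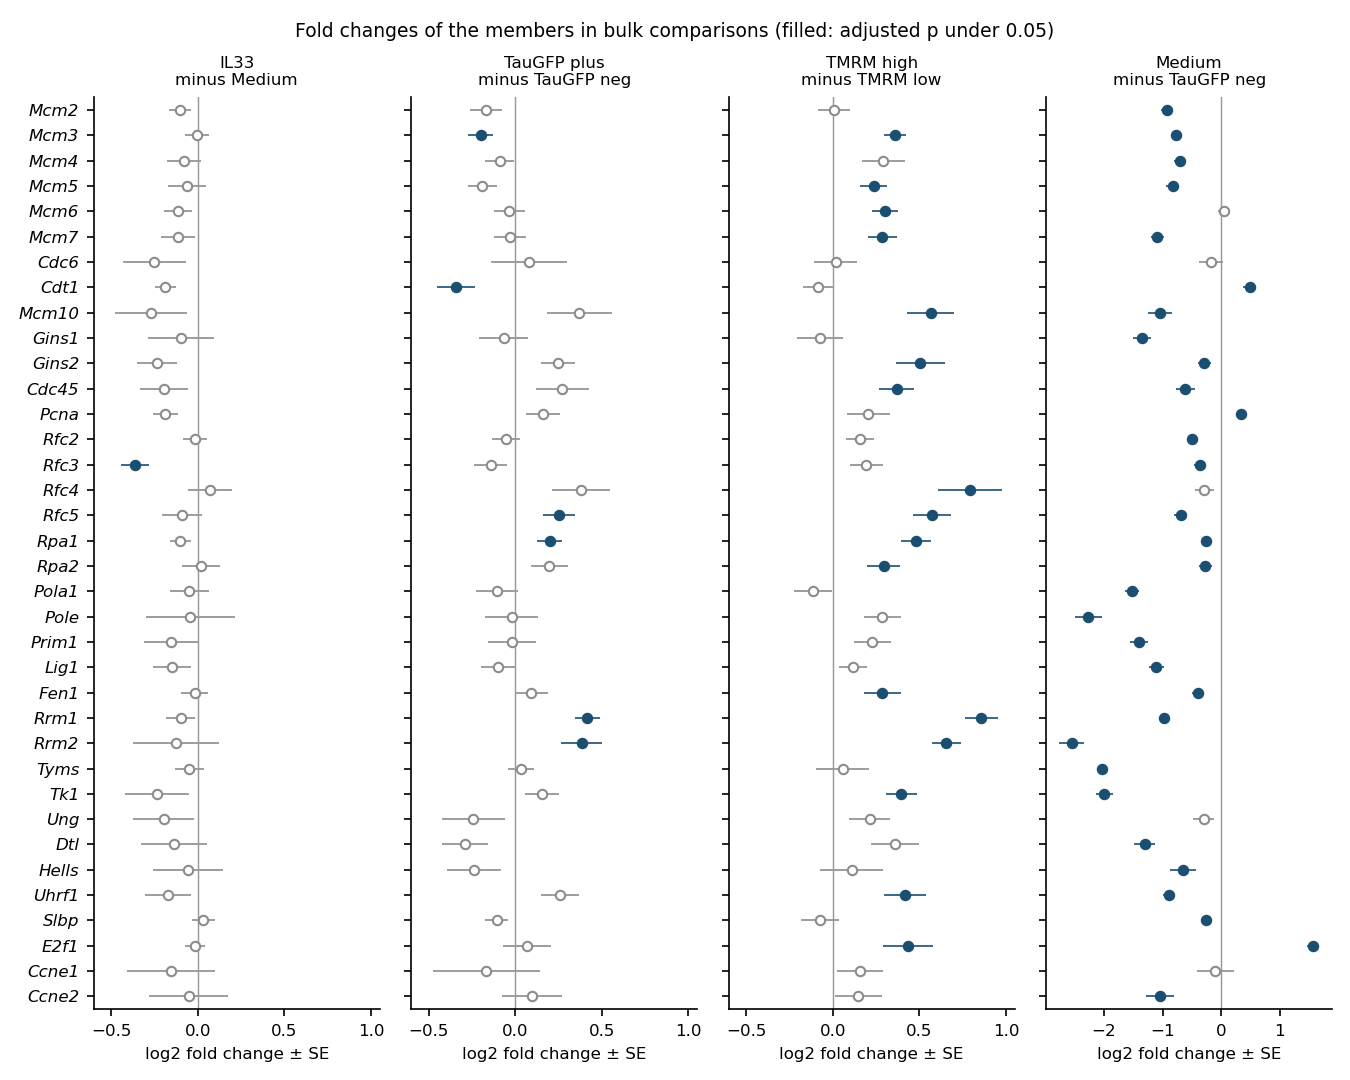
Log2 fold change with its standard error for each member in the 4 bulk comparisons, ordered by role, with filled points for adjusted p under 0.05 (edgeR, and limma for TMRM). The first 3 panels share an axis and the fourth has a wider one, and Rrm1 and Rrm2 are filled right of 0 in both sorts and left of 0 in culture.

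**Figure D5:**
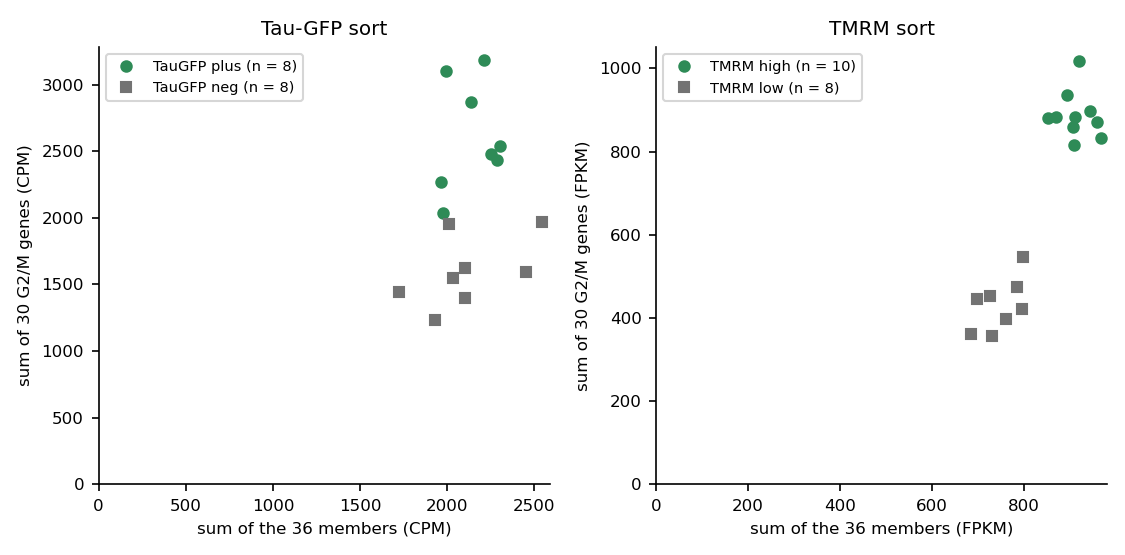
Sum of the 36 members (x axis) against the sum of 30 G2 and mitosis genes (y axis) in each library of the Tau-GFP sort (CPM) and the TMRM sort (FPKM), both axes from 0. In the Tau-GFP sort the positive libraries (2035 to 3186 CPM) lie above the negative ones at like member sums, and in the TMRM sort the high libraries lie above and to the right of the low ones.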

How the data were processed

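Single-cell UMI counts were deposited as a matrix made with Cell Ranger on mm10, per the submitters' processing notes. Expected counts per gene were deposited for the culture and Tau-GFP libraries, made with RSEM and Bowtie2 on mm10 per the submitters' processing notes, and were rounded here because 25.3% were not whole. FPKM values were deposited for the TMRM libraries, made with TopHat2 2.0.10 and Cufflinks 2.0.2 per the submitters' processing notes. The file of TMRM high replicate 8 ends early and lacks 500 symbols, so Pola1 has 17 values there, and 16 FPKM values carry a failed status. The count table has 5 further columns that match no labelled sample and were not used.

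Cells with at least 500 genes and at most 10% mitochondrial UMIs were kept and clustered (scanpy 1.11.5, 2000 variable genes, 30 components, 15 neighbours, Leiden resolution 1), without a doublet caller. The planned marker rule left clusters of dividing cells unnamed. After the clusters were seen it was replaced by a requirement of at least 8 of 10 microglia markers and no large lead of another class. Summing all cells kept is the alternative. A small lead was allowed, and another class was slightly ahead of microglia in clusters 5, 6, 7 and 14. In cluster 6, for example, the mean log difference from all other cells was 0.0089 for lymphocyte and -0.092 for microglia markers. UMIs of microglia-like cells were summed per library, where barcode prefixes with no number were taken as replicate 1 of their age and those with the word redo as the library of that number and genotype. Counts were tested with edgeR 4.0.16 (quasi-likelihood, TMM scaling, filterByExpr; R 4.3.3) and log2(FPKM + 1) with limma 3.58.1 (trend, mean FPKM of at least 1), two-sided, Benjamini-Hochberg adjusted over all genes tested, called at an adjusted p under 0.05. The 4 single-cell groups shared 1 fit. CPM are after TMM scaling unless stated. Scripts were tested on simulated data. Shares have exact Clopper-Pearson 95% intervals. The members and gene lists were chosen with earlier results of these data known. Members given by sample were, in each role, the called ones with the largest and the smallest fold change, and Rrm1, Rfc4, Tk1, Uhrf1 and some others were added after their values were seen. Alternatives were DESeq2 1.42.0, other filters, scalings and pseudocounts, a replicate block, and leaving out libraries. The result of 1 further gene is not reported here.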

Additional observations from a re-analysis of the deposited data

Results flagged for a closer look

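In 84 groups of members given by sample, each of 7 to 10 bulk libraries, 7 had a library far from the others by Dixon's criterion, and chance flags about 1 in 20 such groups. The single-cell groups, of 2 libraries each, were not covered. Pole was 40.51 CPM in Tau-GFP negative replicate 5, with the others at 17.2 to 28.0 CPM. Dtl was 20.58 CPM in medium replicate 2, with the others at 7.88 to 13.3 CPM. In the TMRM sort, Mcm5 was 51.05 FPKM in high replicate 1 (others 40.2 to 45.7) and Tk1 was 53 FPKM in high replicate 6 (others 32.5 to 43.2). TMRM low replicate 3 stood apart in 3 members, with Rfc5 at 20.82 FPKM (others 9.71 to 14.9), Fen1 at 44.54 FPKM (others 23.4 to 32.6) and E2f1 at 11.31 FPKM (others 3.53 to 6.71). Without that library 18 members were called higher in place of 17.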

How the results depend on the processing

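No called member changed sign. All 36 members stayed lower at P28 under every alternative, with leave-one-out medians from -3.36 to -3.17. For the libraries labelled ST2 KO against ST2 Het, the count of higher members was 5 with no filter on low counts, 0 with all cells kept and 0 to 7 over libraries left out. For ST2 Het against wild type, 1 member (Mcm6) was higher with no filter, with all cells kept and with only the 4 libraries, with or without a replicate block. Leaving out libraries gave 0 to 1 higher and 4 to 12 lower members. For IL-33, DESeq2 gave 2 lower members and leaving out libraries 1 to 2. For Tau-GFP, higher members were 2 with no filter and 2 to 7 over libraries left out, and lower members were 1 without positive replicates 3 and 5 and 1 to 4 over libraries left out. The Tau-GFP median, -0.02, ranged from -0.06 to 0.04 over libraries left out. The cause of these changes was not tested. The labels do not say that a shared replicate number marks a shared litter or day, so the main fits used no pairing. In the Tau-GFP sort, same-numbered libraries had deviations from their group means that correlated at -0.16 (replicate 3) to 0.28 (replicate 8). With a replicate block 4 members were lower and 5 higher for Tau-GFP. The block for ST2 Het was fitted on the 4 libraries compared, with 12 lower members, the same 13 calls as those libraries gave without it. The block for TMRM, with 12 higher members, used replicates 1 to 8 and so also left out high replicates 9 and 10.

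The shares of cells with at least 3 member UMIs moved with depth. Thinned to 2000 UMIs they were 38.74% and 38.77% at P9, 5.522% and 4.961% at P28, 33.6% and 37.65% in ST2 Het and 44.87% and 39.01% in the libraries labelled ST2 KO. With at least 2 UMIs at 1000 they were 33.92%, 35.25%, 7.001%, 7.018%, 31.3%, 34.42%, 39.28% and 34.88% in the same order. Groups of 2 libraries and low counts (such as those of Cdc6, Pole, Mcm10, Ccne1 and Ccne2) limit the precision.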
